A study of Mus musculus with 10 samples.

Results

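Collagens, laminins and the proteins that join them make up the extracellular matrix of the kidney. This account follows 83 probe sets for 51 such genes, of 22690 probe sets on the array (12393 genes with a single symbol). A probe set was included when its only annotated symbol was a collagen chain (Col, a number, a, a number), a laminin chain (Lama, Lamb or Lamc with a number), Nid1, Nid2, Hspg2, Fn1, Sparc or Fbn1. Fbn1 matched no probe set. After a filter on dim signals, 52 probe sets for 36 genes were tested, among 13575 tested in all.

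The RNA came from kidneys of male C57/BLACK6 mice aged 7 weeks and weighing about 20 g. Normal kidneys were from untreated mice, which received 4-thiouridine (s4U, 200 µM, intraperitoneally) with tritiated cytidine at 0 and 1 h and were killed at 2 h. Contralateral kidneys were the unclamped kidneys of mice whose left renal artery and vein had been clamped for 45 min under diethylether. These mice received the same injections 1 h and 2 h after reperfusion, and the kidney was removed at 3 h. The protocols describe no sham operation, so the response to the clamped kidney, the surgery, the anaesthetic and the time of removal cannot be told apart. Each kidney group was measured on 5 arrays: 2 held unamplified total RNA, 2 held total RNA after linear amplification, and 1 held newly transcribed RNA, the fraction that carries s4U. The titles call the replicates biological, without naming animals.

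A basement membrane is the thin sheet of matrix on which epithelial and endothelial cells rest. Its frame is 2 networks, one of type IV collagen and one of laminin, which nidogens and the heparan sulfate proteoglycan perlecan (Hspg2) tie together. In the glomerulus the type IV chains α3, α4 and α5 form the mature filtration membrane, and defects in them cause Alport syndrome, while α1 and α2 are found in basement membranes throughout the body. Fibrillar collagens and the beaded filaments of type VI collagen form the interstitial matrix between tubules, which is made mainly by fibroblasts and smooth muscle cells. Total RNA measures the pool of a transcript, and s4U-labelled RNA the part that was made while the label was present.

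The stretches shown here lie upstream of the genes whose differences passed a test, and of Col4a2, which shares its start region with Col4a1, a neighbouring type IV gene. They were read from RefSeq's promoter table (GRCm38.p6), are written 5′ to 3′ on the gene's own strand, and were picked after the motif matches had been seen. Capitals mark a CCAAT box, a GGGCGG (GC) box or a TATAAA box on either strand.
Sparc, chr11:55420081-55420230, minus strand: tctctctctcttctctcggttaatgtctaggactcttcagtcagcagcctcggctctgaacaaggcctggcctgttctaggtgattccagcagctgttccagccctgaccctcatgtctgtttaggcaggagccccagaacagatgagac
Hspg2, chr4:137468553-137468750, plus strand: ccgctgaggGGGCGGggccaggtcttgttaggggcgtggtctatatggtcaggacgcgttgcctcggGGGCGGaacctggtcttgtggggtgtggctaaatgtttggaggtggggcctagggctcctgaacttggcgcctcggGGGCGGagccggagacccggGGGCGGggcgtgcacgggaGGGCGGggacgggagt
Nid1, chr13:13437452-13437601, plus strand: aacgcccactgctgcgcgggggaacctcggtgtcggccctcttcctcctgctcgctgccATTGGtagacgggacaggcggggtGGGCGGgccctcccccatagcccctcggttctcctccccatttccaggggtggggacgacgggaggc
Col4a4, chr1:82586850-82586879, minus strand: gtggccagcagccctgcccagattaagcgg
Col4a2, chr8:11312764-11312793, plus strand: aggagctccCCAATttgttggcgctgcccc

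The Hspg2 stretch holds 5 GGGCGG matches, the Nid1 stretch holds 1 GGGCGG and 1 CCAAT on the opposite strand, and the Sparc stretch holds none of the 3 motifs. Over windows of 250 bases before to 50 after the start, GGGCGG was in 56.4% of the 39 member windows (35 of the 51 genes had an entry) and in 35.7% of all 32851 windows. CCAAT was in 35.9% of member windows and 37.4% of all, and TATAAA in 12.8% and 13.6%. The windows of the members were also richer in G and C, with a median of 59.3% against 52.7%, and GGGCGG is itself made of G and C alone. In RefSeq's annotation (GRCm38.p6) the windows of Col4a1 and Col4a2 overlap on opposite strands, so the stretch of Col4a2 lies at the shared start of this pair. Col4a3 had no entry, so its start was not set beside that of Col4a4. A match is a description of letters, and no factor's binding was measured.

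The arrays differed in brightness and in the coverage of transcripts. Median deposited intensity ran from 18.6 on the contralateral newly transcribed array to 70.3 on the normal one, with the other 8 arrays between. The ratio of the 3′ to the 5′ control probe set of Gapdh was 0.938 to 1.12 in total RNA, 4.21 to 6.23 in amplified RNA, 12.7 on the normal and 68.9 on the contralateral newly transcribed array. Every value below is a normalized log2 signal, log2(intensity + 11.8) after quantile normalization, unless a deposited intensity is named. All 10 kidney tubule markers were among the tested genes, and their summed signal was 14.0 to 14.5 on the log2 scale in all 6 groups. The brightest genes weigh most in such a sum. At an adjusted p below 0.05 (limma), 0 of the 10 differed between kidneys in total RNA, beside 1.91% of all tested. In amplified RNA 1 was lower in contralateral kidneys, beside 6.22% of all tested. Before adjustment 2 and 4 were below 0.05. Between the newly transcribed arrays their median difference was -0.25, with 3 of 10 above 0. In whole kidney, fewer cells of a type and less RNA per cell cannot be told apart.

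In total RNA no collagen, laminin or other matrix gene differed between contralateral and normal kidneys past the threshold. The count was 0 of 52 probe sets at an adjusted p below 0.05 (limma, Benjamini-Hochberg over 13575 probe sets), beside 1.91% of all tested probe sets. Before adjustment 4 were below 0.05. These were Nid1 (probe set 1448469_at, higher by 0.90), Col4a4 (higher by 0.54), Sparc (1416589_at, higher by 0.36) and Hspg2 (1418669_at, a log2 difference of -0.39), with adjusted p from 0.130 to 0.206 in limma. The members' median difference was -0.03 and that of all tested probe sets -0.01. For 49 of the 52 the 95% confidence interval lay within a 2-fold change in either direction, and the exceptions were Nid1 (1448469_at), Lama4 and Col25a1. Leaving out either contralateral amplified array, which changes only the shared estimate of the spread, brought Nid1 (1448469_at) to an adjusted p of 0.0477 or 0.0493.

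In amplified total RNA the type IV chain Col4a4 was higher in contralateral kidneys, and 1 probe set each of Sparc and Hspg2 was lower. These 3 of 52 probe sets that passed the threshold make 5.77%, beside 10.3% of all tested probe sets (4.1% higher and 6.22% lower; limma, Benjamini-Hochberg). Before adjustment 12 members were below 0.05, 8 of them higher and 4 lower. The median difference was 0.12, against 0.02 for all tested probe sets, and the interval lay within a 2-fold change for 44 of 52. Arrays of the 2 kidney groups did not overlap for 22 members that were higher and 6 that were lower in contralateral amplified RNA (42.3% and 11.5%, beside 29.5% and 25.5% of all tested). In total RNA these shares were 17.3% and 25% of the members, beside 22.4% and 24.2%. Higher without overlap in both preparations were 5 members (9.62%, beside 8.6% of all tested): Col4a1 (1452035_at), Col4a3, Col4a4, Col5a2 (1422437_at) and Lama5 (1427010_s_at). The other tested sets of Col4a1 and Col5a2 were lower without overlap in total RNA. Lower without overlap in both were 0 members, beside 6.65% of all tested.

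Averaged over the 3 preparations, 0 of 52 members passed the threshold, beside 0.442% of all tested probe sets, and 5 were below 0.05 before adjustment (limma, additive model of kidney and preparation). The lowest adjusted p was that of Col4a4, 0.0726, with a difference of 0.74 (SE 0.15, 5 arrays against 5). Arrays of different preparations may come from the same animals, so 5 arrays need not be 5 animals. Without the newly transcribed arrays Col4a4 differed by 0.61 with an adjusted p of 0.0275, the one member called then.

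**Figure D1:**
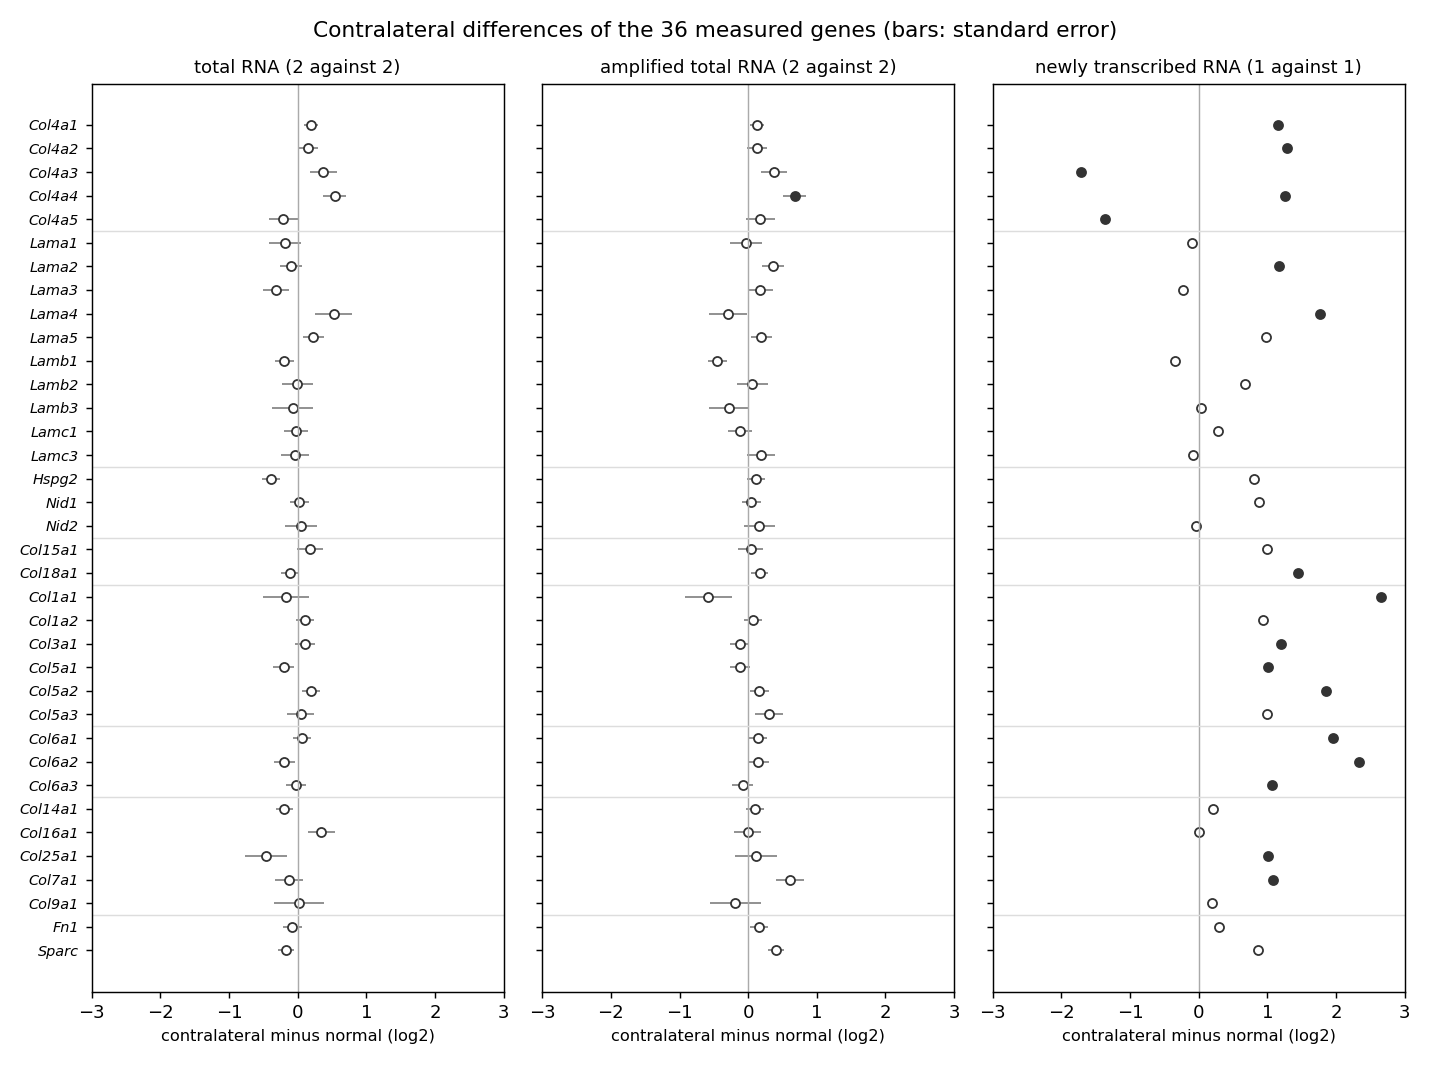
Contralateral minus normal difference of the 36 measured genes (log2, brightest probe set of each gene) for unamplified, amplified and newly transcribed RNA, 1 panel each. Bars are standard errors, absent in the third panel, where 1 array stood against 1; filled points have an adjusted p below 0.05 in the first and second panels and are at least 2-fold in the third, where most genes lie to the right of 0.

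Col4a4 was the type IV collagen chain whose difference passed a test, and most chains of this class lay above 0 in the replicated preparations. Col4a4 gave 7.79 and 7.51 on the normal and 8.09 and 8.30 on the contralateral total RNA arrays. In amplified RNA it gave 6.02 and 5.80 against 6.70 and 6.47, and in newly transcribed RNA 5.76 against 7.02. Both contralateral arrays exceeded both normal arrays in each replicated preparation. The difference in amplified RNA was 0.68 (SE 0.17, 1.60-fold, adjusted p = 0.0256 in limma, 2 arrays against 2), and the test of the difference between the 2 preparations gave 0.13 (95% confidence interval -0.38 to 0.65, adjusted p = 0.818, limma). That call ended without either normal amplified array (0.79 with adjusted p = 0.0712, and 0.56 with 0.203) and without contralateral amplified replicate 1 (0.56 with 0.12), fits in which the lone array is assumed to vary like the other groups.

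Col4a3, whose gene adjoins that of Col4a4, gave 8.35 and 7.93 in normal and 8.53 and 8.51 in contralateral total RNA. Amplified RNA gave 7.37 and 7.59 against 7.59 and 8.12. The groups did not overlap in either preparation, and the differences of 0.38 and 0.38 did not pass the threshold. In newly transcribed RNA the order turned: 6.70 on the normal and 4.98 on the contralateral array, the lowest of the 10 arrays for this probe set. The deposited intensities there were 165 and 9.4. So the neighbouring genes Col4a3 and Col4a4 lay on opposite sides of 0 in newly transcribed RNA, at -1.72 and 1.26.

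Col4a1, a chain of most basement membranes, gave 10.60 and 10.53 in normal and 10.68 and 10.84 in contralateral total RNA (1452035_at). Amplified RNA gave 9.93 and 9.89 against 9.95 and 10.14, and newly transcribed RNA 9.03 against 10.19. The differences of this set in the replicated preparations, 0.20 and 0.13, did not pass the threshold. Its second set (1426348_at) gave 9.467 and 9.51 against 9.467 and 9.21 in total RNA, a difference of -0.15 with the nearest arrays level, and 8.46 and 8.27 against 8.65 and 9.08 in amplified RNA, higher by 0.50 (adjusted p = 0.0653, limma). The 2 sets of Col4a1 thus lay on opposite sides of 0 in total RNA and on the same side in amplified RNA. Its partner Col4a2 gave 9.83 and 9.60 against 9.75 and 9.996 in total RNA, where the groups overlapped, and 8.28 against 9.57 in newly transcribed RNA. Both members of this pair were thus more than 2-fold higher on the contralateral newly transcribed array, by 1.16 and 1.29 on the log2 scale.

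Col4a5, the X-linked partner of α3 and α4, gave 7.89 and 7.35 against 7.13 and 7.70 in total RNA and 7.46 and 7.40 against 7.52 and 7.69 in amplified RNA (1425476_at). For this set the groups overlapped in the first and did not in the second. The second set (1425475_at) was the reverse, with 7.51 and 7.19 against 7.13 and 6.84 in total RNA, lower without overlap (-0.36, adjusted p = 0.347, limma), and with overlap in amplified RNA. In newly transcribed RNA 1425476_at gave 6.63 against 5.26, a difference of -1.37, and the second set differed by -1.49. The deposited intensities were 155 and 12.3 for 1425476_at, and 130 and 8.9 for the second set. The sixth chain gene, Col4a6, was not tested, since both of its probe sets were dim. Of the 7 tested type IV probe sets, all 7 were above 0 in amplified RNA (beside 52.6% of all tested) and 4 of 7 in total RNA (beside 47.3%). In newly transcribed RNA all 7 were at least 2-fold apart, 4 higher (Col4a1 with 2 probe sets, Col4a2, Col4a4) and 3 lower (Col4a3, Col4a5 with 2). Of all tested probe sets 32.8% were at least 2-fold apart there, 14.4% higher and 18.5% lower.

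**Figure D2:**
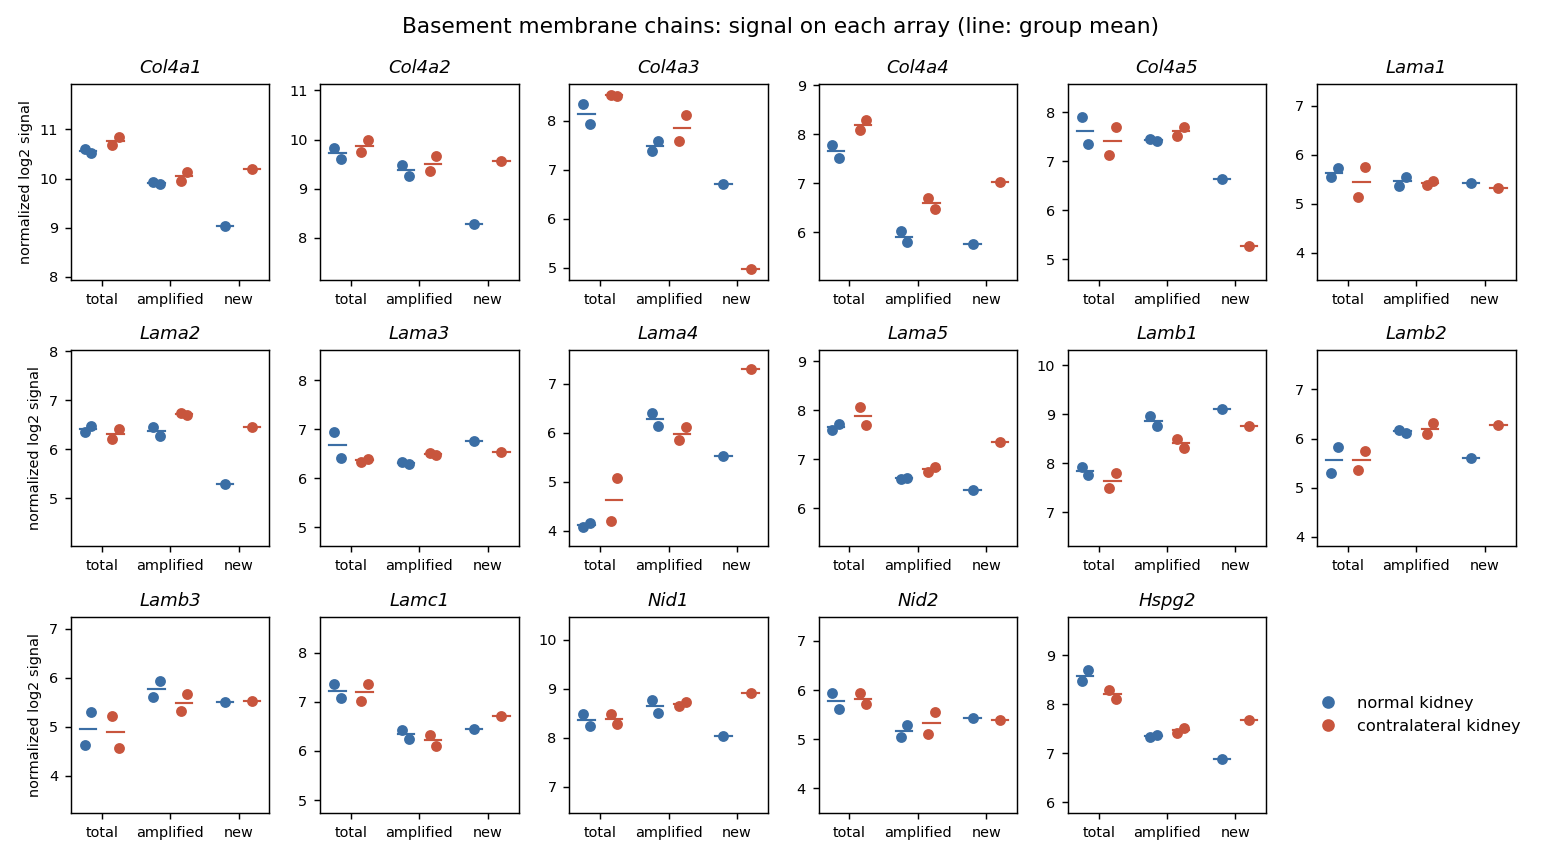
Normalized log2 signal of 17 basement membrane chains on each array (1 point per array, line at the group mean), for normal and contralateral kidneys in total, amplified total and newly transcribed RNA. Vertical axes have one span but different positions, so levels are compared within a panel only. Col4a4 is higher in the contralateral kidney in all 3 preparations, and Col4a3 is lower there on the newly transcribed array and higher in the other preparations.

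Among laminins, which self-assemble into the second network as trimers of 1 α, 1 β and 1 γ chain, 0 of 13 probe sets passed the threshold in total or amplified RNA (limma; 0 and 3 were below 0.05 before adjustment). Beside them, 1.91% of all tested probe sets passed in total and 10.3% in amplified RNA. Lama5, the α chain of the mature kidney, gave 7.60 and 7.72 against 8.07 and 7.70 in total RNA and 6.61 and 6.61 against 6.75 and 6.85 in amplified RNA (1427009_at). Its second probe set (1427010_s_at) gave 6.23 and 6.37 against 6.56 and 6.52, and 5.62 and 5.97 against 6.36 and 6.41. That second set did not overlap between kidneys in either preparation, and its difference in amplified RNA was 0.59 (adjusted p = 0.0513, limma). Lamb1, a β chain of developing and interstitial basement membranes, went the other way in amplified RNA, with 8.95 and 8.75 in normal and 8.49 and 8.32 in contralateral kidneys (1424114_s_at). Its difference was -0.45 (adjusted p = 0.0725, limma), and -0.19 in total RNA, where the groups overlapped.

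The other laminin chains showed no common direction. Lama2, the α chain of muscle and mesenchyme, gave 6.45 and 6.28 against 6.75 and 6.70 in amplified RNA, without overlap, but overlapped in total RNA. Lama4, the α chain of vessel walls, gave 4.07 and 4.16 against 4.20 and 5.08 in total RNA, where deposited intensities were only 6 to 20.9 (1424807_at). In amplified RNA the same set gave 6.41 and 6.14 against 5.84 and 6.13, lower without overlap (-0.29, adjusted p = 0.566, limma), and so opposite in sign to total RNA. On the newly transcribed arrays Lama4 gave 5.53 against 7.30, Lama2 5.30 against 6.46 and Lama5 6.38 against 7.36. Lamc1, the γ chain of most laminins (1423885_at), gave 7.36 and 7.08 against 7.02 and 7.37 in total RNA, 6.43 and 6.24 against 6.32 and 6.11 in amplified RNA, and 6.44 against 6.72 in newly transcribed RNA. Its groups overlapped in both replicated preparations. Lama1, Lama3, Lamb2, Lamb3 and Lamc3 differed by -0.31 to 0.19 in the replicated preparations. On the newly transcribed arrays Lamb2, the β chain of the mature glomerulus, gave 5.60 against 6.27, and the other 4 of these chains differed by -0.23 to 0.03.

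Perlecan and nidogen 1, the linkers, each have a brighter and a dimmer probe set, and the sets gave different accounts of the same gene. The brighter perlecan set (Hspg2, 1418669_at) gave 8.48 and 8.69 in normal and 8.30 and 8.10 in contralateral total RNA, lower without overlap. Amplified RNA gave 7.33 and 7.38 against 7.42 and 7.52, higher without overlap. The dimmer set (1418670_s_at) gave 6.65 and 6.49 against 6.78 and 6.33 in total RNA, where the groups overlapped. Its amplified RNA values were 4.89 and 4.94 against 4.16 and 3.85, and that difference of -0.91 (SE 0.22, 1.88-fold, adjusted p = 0.0235 in limma) passed the threshold. The deposited intensities were 16.4 and 18.6 in normal and 3.7 and 2.8 in contralateral amplified RNA, the latter below the offset of 11.8. All of these amplified log2 values lay below the filter line of 5.27, which the set passed by its mean over all arrays (5.51). The call therefore rests on dim signals. In newly transcribed RNA both sets were higher in the contralateral kidney, 6.88 against 7.69 and 4.86 against 6.17. The call in amplified RNA ended without either normal amplified array (adjusted p = 0.115 and 0.145) and without contralateral amplified replicate 2 (-0.75, adjusted p = 0.0921). It also ended with an offset of 32 in place of 11.8 (-0.48, adjusted p = 0.0742).

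The brighter nidogen 1 set (Nid1, 1416808_at) gave 8.48 and 8.25 against 8.50 and 8.28 in total RNA and 8.77 and 8.52 against 8.65 and 8.72 in amplified RNA. Neither difference, 0.02 and 0.05, exceeded the spread between arrays. The dimmer set (1448469_at) gave 6.27 and 5.95 against 7.18 and 6.84 in total RNA, higher without overlap. The amplified arrays gave 5.69 and 5.70 against 4.40 and 5.17, lower without overlap. Their deposited intensities were 38.4 and 40.4 in normal and 5.9 and 27.2 in contralateral kidneys, and 5.9 is below the offset of 11.8. Both contralateral log2 values lay below the filter line of 5.27, which applies to the mean over all arrays. The test of the difference between the effects in amplified and total RNA gave -1.81 (SE 0.37, adjusted p = 0.0181, limma). That call ended without either normal amplified array (adjusted p = 0.0769 and 0.0803), without normal total replicate 2 (-1.65, adjusted p = 0.0934) and without contralateral total replicate 1 (-1.65, adjusted p = 0.0939). Nid2, the second nidogen, gave 5.94 and 5.62 against 5.94 and 5.71 in total RNA and 5.05 and 5.28 against 5.10 and 5.56 in amplified RNA, with overlap in both.

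Sparc, a collagen-binding glycoprotein secreted where matrix is laid down, also has 2 tested probe sets that disagree. Its brighter set (1448392_at) gave 10.74 and 10.66 in normal and 10.47 and 10.57 in contralateral total RNA. In amplified RNA it gave 9.71 and 9.56 against 9.89 and 10.18, a difference of 0.40 that fell just short of the threshold (SE 0.12, adjusted p = 0.0502, limma). The set was called with the control probe sets kept during normalization (adjusted p = 0.04998, limma), with an offset of 32 (0.0496) or with a filter at the 60th percentile (0.0454). It was also called without the newly transcribed arrays (0.0473) or either of them (0.0487 and 0.0489). It was not called with an offset of 1, 75th percentile scaling, quantile normalization within each preparation or no filter. Nor was it called with no intensity trend, the replicate block or the amplified arrays alone. Without contralateral amplified replicate 1 the difference was 0.55.

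The other Sparc set (1416589_at) gave 10.02 and 9.79 against 10.25 and 10.28 in total RNA, higher in the contralateral kidney. On the amplified arrays it gave 8.59 and 8.59 against 7.60 and 7.55, a difference of -1.01 (SE 0.11, 2.02-fold, adjusted p = 0.000337 in limma). The effects in the 2 preparations differed by -1.37 (SE 0.16, adjusted p = 0.000733, limma). Both calls held under the 21 alternatives that keep probe sets apart. Both ended when the probe sets of a gene were averaged, at -0.31 (adjusted p = 0.0947) in amplified RNA and -0.40 (adjusted p = 0.189, limma) for the difference of effects. In newly transcribed RNA this set gave 7.98 against 7.96, while the brighter set gave 8.83 against 9.69. The probe sets of Sparc thus lay on opposite sides of 0 within the same 4 amplified arrays.

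Over all members the effect differed between amplified and total RNA for 2 of 52 probe sets, the Sparc and Nid1 sets just described, beside 4.46% of all tested probe sets (3.82% lower, as these 2 were). Neither is the brightest set of its gene, and of the 36 brightest sets 0 passed (3 were below 0.05 before adjustment, limma). Of the 15 member genes with more than 1 tested set, 6 had sets of opposite sign in total RNA (40%) and 5 in amplified RNA (33.3%), beside 47.6% and 49.3% of all such genes. The 3′ to 5′ control ratio also differed between total and amplified RNA, and its part in the disagreement of probe sets was not tested.

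**Figure D3:**
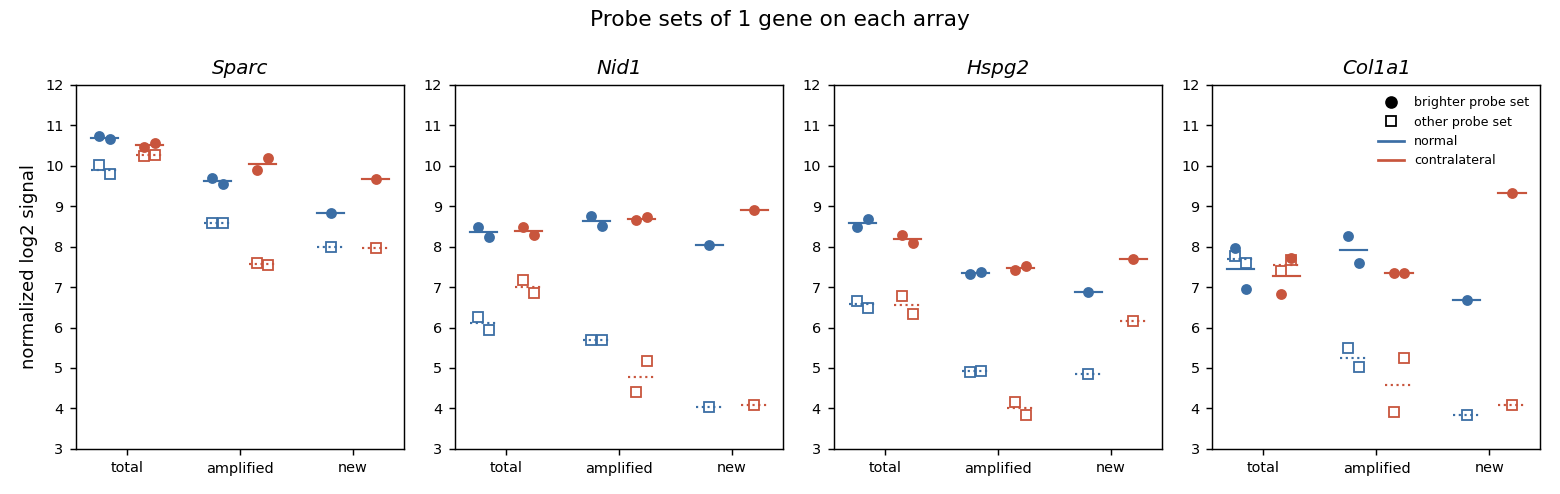
Normalized log2 signal of the brighter (filled circle) and the other (open square) tested probe set of Sparc, Nid1, Hspg2 and Col1a1 on each array, with a line at each group mean. In amplified RNA the other sets of Sparc, Nid1 and Hspg2 are lower in the contralateral kidney while the brighter sets are not, and the sets of Col1a1 lie together in total RNA and apart in amplified and newly transcribed RNA.

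No interstitial collagen differed between kidneys past the threshold in the replicated preparations. Of 11 probe sets for fibrillar collagens (types I, III and V) and 4 for type VI, 0 passed in total or amplified RNA (limma; 0 in total and 1 in amplified RNA were below 0.05 before adjustment), with medians of -0.07 and 0.14 for the fibrillar and -0.11 and 0.09 for the type VI sets. The shares of all tested probe sets that passed were 1.91% in total and 10.3% in amplified RNA. Col1a1, the main chain of type I collagen, gave 7.96 and 6.94 against 6.84 and 7.71 in total RNA and 8.26 and 7.59 against 7.35 and 7.34 in amplified RNA (1455494_at). Its normal total RNA arrays lay further apart than the group means did. Col5a2, a type V chain that seeds fibrils, gave 7.30 and 7.18 against 7.43 and 7.43 in total RNA and 7.40 and 7.37 against 7.45 and 7.65 in amplified RNA, higher without overlap in both (1422437_at). Its other set (1450625_at) gave 5.96 and 5.88 against 5.87 and 5.82 in total RNA, lower without overlap, and overlapped in amplified RNA. Col6a1 gave 7.76 and 7.61 against 7.75 and 7.76, and Col6a2 (1452250_a_at) 7.57 and 7.51 against 7.22 and 7.47, in total RNA.

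Type XV and XVIII collagens, which sit at the outer face of basement membranes, did not pass the threshold either. Col18a1, the source of endostatin, gave 8.83 and 9.04 against 8.73 and 8.92 in total RNA (1426955_at). Its second set (1418237_s_at) gave 7.78 and 7.93 against 8.07 and 8.43 in amplified RNA, higher without overlap (0.40, adjusted p = 0.109, limma). Fibronectin (Fn1), which binds both collagen and integrins, gave 8.42 and 8.36 against 8.34 and 8.29 in total RNA, and 8.69 and 8.51 against 8.91 and 8.60 in amplified RNA. The remaining collagens (Col7a1, Col9a1, Col14a1, Col16a1 and Col25a1) ranged from -0.46 to 0.60, the highest being Col7a1 of anchoring fibrils in amplified RNA (adjusted p = 0.0899, limma).

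On the newly transcribed arrays the matrix genes stood mostly higher in the contralateral kidney. With 1 array against 1 there was no replicate check and no test. Of 52 probe sets 21 were at least 2-fold higher (40.4%, beside 14.4% of all tested) and 5 at least 2-fold lower (9.62%, beside 18.5%), which makes 26 at least 2-fold apart, beside 32.8% of all tested. The median difference was 0.90, against 0.00 for all tested probe sets, and 40 of 52 were above 0. All 4 type VI and all 11 fibrillar sets were above 0, with medians of 1.67 and 1.01, and all 3 sets of types XV and XVIII were, with a median of 1.45. Laminins had a median of 0.03, with 7 of 13 above 0.

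The largest difference was that of Col1a1 (1455494_at), at 6.68 on the normal and 9.33 on the contralateral array, 6.28-fold. Col6a2 followed at 7.51 against 9.84, Col6a1 at 7.01 against 8.96, Col5a2 at 6.396 against 8.25 and Lama4 at 5.53 against 7.30. The other probe set of Col1a1 (1423669_at) gave 3.85 against 4.07, and its deposited intensities were 3.6 and 2.3. In the other direction the genes with the largest steps by their brightest set were, after Col4a3 and Col4a5, Lamb1 (9.11 against 8.76), Lama3 (6.77 against 6.53) and Lama1 (5.42 against 5.32). The dimmer Lamb1 sets gave -1.41 and -1.41. This gene and the α3 and α5 chains of type IV collagen thus made up the whole of the 5 lower sets. All 5 were dim on the contralateral array, near or below the offset of 11.8. Their deposited intensities there were 9.4 (Col4a3), 12.3 and 8.9 (Col4a5), and 10.9 and 1.3 (Lamb1). The brightest Lamb1 set, at 910 and 181, differed by only -0.35. The part of low signal in these 5 differences was not tested. Sets of the same gene pointed in opposite directions for 1 of 15 member genes (6.67%), beside 44.3% of all genes with more than 1 tested set.

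These differences are relative to the array. The contralateral newly transcribed array was dim, with a median intensity 0.265 times that of the normal one. In the deposited intensities 5 of 52 members were higher on it, and the median ratio of the members was 0.505. Col1a1 was one of the 5, at 277 against 162, and so was Col6a2, at 417 against 312. The median of the members stayed above 0 under each scaling tried, between 0.76 and 1.03 with the same filter on dim signals and 0.48 with no filter. The coverage of transcripts also differed, with a 3′ to 5′ Gapdh ratio of 12.7 on the normal and 68.9 on the contralateral newly transcribed array. The part of coverage in the differences between these arrays was not tested.

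**Figure D4:**
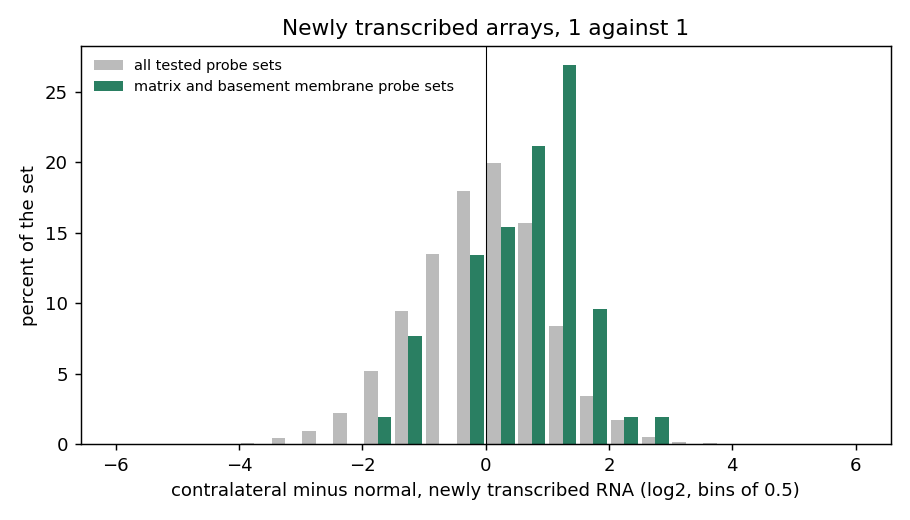
Distribution of the contralateral minus normal log2 difference between the 2 newly transcribed arrays, as the percent of probe sets in bins of 0.5, for the 52 tested matrix probe sets and all 13575 tested probe sets. The grey distribution is centred near 0 and the matrix probe sets near 0.90.

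Markers of other cells also differed between these arrays. The 10 tested markers of fibroblasts and smooth muscle, of 11 on the array, had a median difference of 0.75 between the newly transcribed arrays, and 8 of 10 were above 0 (Pdgfrb 1.80, Acta2 1.61, Myh11 -1.36). Their summed signal was 10.3 on the normal and 11.5 on the contralateral newly transcribed array, against 10.7 to 11.1 on the 8 other arrays. The 7 tested leukocyte markers, of 9, had a median of 0.56 (summed signal 10.3 and 11.3). Their sum did not overlap between kidneys in amplified RNA (10.5 and 10.5 in normal, 10.6 and 10.995 in contralateral) and overlapped in total RNA. For the 3 tested markers of other tissues, of 9, the median was 1.79: Adipoq 2.04 and Fabp4 1.79, both of fat cells, and Star 1.47, of steroid-making cells. The summed signal of these 3 was 8.97 and 10.8, and it was higher on both contralateral than on both normal arrays in total RNA (10.3 and 10.5 against 9.62 and 10.1) and in amplified RNA (9.80 and 9.91 against 9.55 and 9.72). Markers of podocytes, the cells that make the α3, α4 and α5 chains in the glomerulus, had a median of -0.20 over 6 genes, and 11 endothelial markers had a median of -0.10. The part of these cells in the matrix differences was not tested. In total and in amplified RNA 0 markers of these 5 lists passed the threshold (limma; 0 or 1 of each list was below 0.05 before adjustment), beside 1.91% and 10.3% of all tested.

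Between preparations the matrix genes differed in both directions, at a share near that of all probe sets. Between amplified and total RNA, with 4 arrays each, 21 of 52 probe sets passed the threshold, which is 40.4%, beside 38.4% of all tested (limma, additive model). Of these 9 were higher and 12 lower in amplified RNA, beside 20.7% and 17.6% of all tested. Lower in amplified RNA were Col4a4 (-1.67, SE 0.17), both sets of perlecan (-0.98 and -2.10), both sets of Sparc (-0.77 and -2.003) and both sets of Col4a1. So were Lama5 (1427009_at, -1.07), Lamc1 (-0.93), Nid2 (-0.56) and the dimmer set of Nid1 (-1.32), whose brighter set was at 0.29 and did not pass. Higher were Lama4 (1.75, SE 0.33), Lamb1 (0.89 for 1424114_s_at and 0.81 for 1424113_at), Lamb2 (0.62) and Lamb3 (0.70). Higher too were Col6a2 (1452250_a_at, 1.14), Col6a3 (0.59), Col14a1 (1428455_at, 0.58) and Col16a1 (0.67). The remaining sets of Lamb1 (1451241_at, -0.41) and Col6a2 (1426947_x_at, -0.23) lay the other way and did not pass. The sets of Col1a1 parted by 2.96, since 1423669_at fell by 2.69 from values of 7.39 to 7.77 in total RNA to values of 3.92 to 5.49 in amplified RNA. Without either newly transcribed array the count was 34 or 35, beside 7911 or 7909 of all 13575 tested. Without any 1 of the other arrays it was 13 to 19, beside 4035 to 4340 of all tested.

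Between newly transcribed and amplified total RNA 9 of 52 probe sets passed, all lower (17.3%, beside 28.6% of all tested and 16.7% lower, limma). They were both sets of Col4a5 (-1.57 and -0.98), Col4a3 (-1.83), Col14a1 (1427168_a_at, -1.08), Col3a1 (1427883_a_at, -0.98), Lamb1 (1451241_at, -0.96), Col6a3 (-0.78), Col1a2 (1423110_at, -0.77) and Fn1 (-0.75). The direction of the members rests on which newly transcribed array is used. With the contralateral array alone their median difference was 0.11, beside -0.02 for all tested probe sets. With the normal array alone it was -0.60, beside -0.03. In the normal kidney the median of the members was -0.53, with 11 of 52 above 0 (21.2%), beside -0.03 and 48.2% of all tested. In the contralateral kidney it was 0.08, with 31 of 52 above 0 (59.6%), beside -0.02 and 49.1%.

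**Figure D5:**
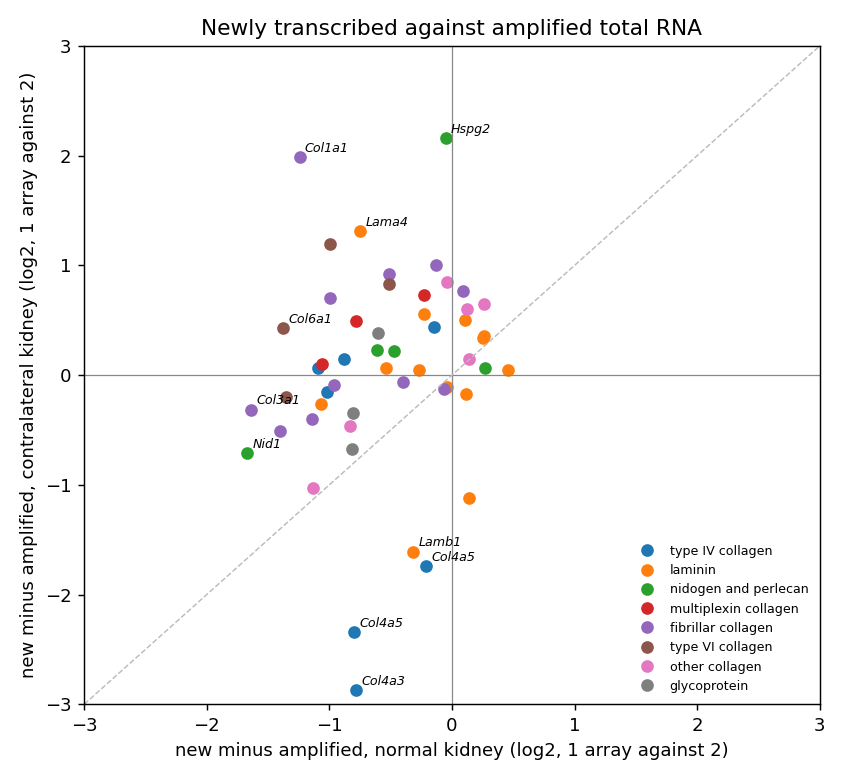
Newly transcribed minus amplified total RNA (log2) of the 52 tested matrix probe sets in the normal kidney (horizontal) and in the contralateral kidney (vertical), coloured by class, with the dashed line at equal values. Most points lie above the dashed line and left of 0, and the sets of Col4a3 and Col4a5 and 1 set of Lamb1 lie at the bottom.

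Genes that build, bind and cut the matrix were read from lists chosen with earlier results known. Beside the counts here stand 1.91% of all tested probe sets called in total RNA (1.58% higher) and 10.3% in amplified RNA (4.1% higher and 6.22% lower). Of 18 tested genes for collagen synthesis and crosslinking, 1 passed in total RNA, Lox, the lysyl oxidase that crosslinks collagen and elastin. It was higher in contralateral kidneys by 0.96 in total RNA (SE 0.14, adjusted p = 0.00748), by 0.89 in amplified RNA (adjusted p = 0.0025) and by 1.08 over all preparations (adjusted p = 0.0153, limma). Serpinh1, the collagen chaperone HSP47, was lower by -1.08 in amplified RNA (adjusted p = 0.0055, limma). On the newly transcribed arrays the procollagen protease enhancer Pcolce differed by 2.57, Loxl1 by 1.88, Lox by 1.71 and the procollagen protease Bmp1 by 1.69, while the prolyl hydroxylase subunits P4ha1 and P4hb differed by -1.33 and -1.14. The median of the list was 0.52.

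Of 16 tested matrix receptors 1 was higher in total RNA and 5 were lower in amplified RNA. The laminin receptor chain Itga6 (-0.63), Itgav (-0.37), Itgb6 (-1.65), and the syndecans Sdc1 (-0.93) and Sdc4 (-0.67) were lower in contralateral amplified RNA. Sdc4 was the gene higher in total RNA, by 0.55, and its effects in the 2 preparations differed by -1.22 (adjusted p = 0.000965, limma). The effects of Itgb6, with a difference of 0.70 in total RNA that did not pass (adjusted p = 0.298), differed by -2.34 (adjusted p = 0.00812, limma). Of 19 proteases and inhibitors 0 passed in total RNA (limma, 2 below 0.05 before adjustment) and 1 in amplified RNA, the plasminogen activator Plat (0.75). Of 31 other matrix proteins 0 passed in total RNA (limma, 4 before adjustment) and 2 in amplified RNA, Sparcl1 (0.66) and Tinagl1 (0.54). Of 22 genes of TGF-β signalling and growth factors, Ccn2, the connective tissue growth factor, was higher in total RNA (1.04) and Tgif1 in total (0.86) and amplified RNA (0.73). In amplified RNA Ccn1 was higher (0.76) and Id2 lower (-1.03).

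The 15 member genes without a tested probe set were Col2a1, Col4a6, Col8a1, Col9a2, Col9a3, Col10a1, Col11a1, Col11a2, Col12a1, Col13a1, Col17a1, Col19a1, Col20a1, Col22a1 and Col26a1. Several are collagens of cartilage or skin. The highest deposited intensity of any of them on any array was 60, for Col8a1. The filter kept probe sets whose mean over the 10 arrays exceeded 5.27 on the log2 scale. Lamb3 lay just inside at 5.33 and Col12a1 just outside at 5.24.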

How the data were processed

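The deposited table covers 10 one-colour Affymetrix arrays of mouse kidney RNA in 6 groups. Per the labels' protocols RNA was column-purified and biotin-labelled by a T7-based strategy, with linear amplification. Each value the authors deposited is a linear signal intensity of a probe set. How probe signals were summarised or scaled, and whether detection was called, is not given in the sources used here. No statement on background is therefore made.

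The 64 control probe sets were removed, an offset of 11.8 (the 25th percentile over the whole table) was added, log2 was taken, and arrays were quantile normalized. This scale understates changes of dim probe sets. Removing the controls before rather than after normalization was chosen once both versions' counts had been seen, to match an earlier processing of these data. Probe sets with a mean above the 40th percentile (13575) were tested with limma 3.58.1 (R 4.3.3) using eBayes with a trend on intensity, Benjamini-Hochberg adjustment and a threshold of 0.05. All 10 arrays entered each fit. Group means (4 residual degrees of freedom) gave the contralateral effects within preparations and their difference, and kidney plus preparation (6 degrees of freedom) gave the rest. Newly transcribed RNA has 1 array a kidney, so a 2-fold difference is the call there.

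Symbols came from the platform annotation (20393 probe sets with 1 symbol, 691 with several, 1606 not listed). The brightest probe set stands for its gene. Array values are given for members that passed a contralateral test, the 5 largest differences each way between the newly transcribed arrays, and the basement membrane chains; other members named were chosen after their values were seen. The members, lists and tests were chosen with earlier results of these data known. The titles say biological replicate without naming animals, and p-values measure the spread between arrays. Deviations of same-numbered total and amplified arrays of a kidney group correlated at 0.097 (normal) and 0.0998 (contralateral). Across kidney groups the correlations were -0.07 to 0.04. Such low values cannot show that the arrays came from different mice. Numbers were not treated as pairs, and arrays of different preparations may share animals. The fitting script was tested on simulated data. No pair of arrays shared more than 0.811% of equal values.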

Additional observations from a re-analysis of the deposited data

Results flagged for a closer look

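For 2 probe sets the test of the difference itself found unequal contralateral effects in amplified and in total RNA. For Sparc (1416589_at) the effect in amplified minus that in total RNA was -1.37 (adjusted p = 0.000733, limma, Benjamini-Hochberg), with 0.36 in total and -1.01 in amplified RNA. For Nid1 (1448469_at) it was -1.81 (adjusted p = 0.0181, limma), with 0.90 in total and -0.91 in amplified RNA. This Nid1 set was dim in contralateral amplified RNA, with deposited intensities of 5.9, below the offset of 11.8, and 27.2. Both contralateral arrays lay on the same side of both normal arrays in each preparation, for each of the 2 probe sets. The brighter probe sets of the same genes gave 0.58 (adjusted p = 0.0806) and 0.02. With the probe sets of each gene averaged, neither difference passed, at -0.40 (adjusted p = 0.189) for Sparc and -0.90 (adjusted p = 0.0821, limma) for Nid1.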

How the results depend on the processing

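The members called in amplified RNA and in the difference of effects kept their direction under each alternative run, but not always their call. In amplified RNA 3 members were called in the main fit, beside 1400 of all 13575 tested. They became 5 with 75th percentile scaling (beside 1471), with quantile normalization within each preparation (1535), or without the newly transcribed arrays (1392). There were 4 with the controls kept in the normalization (1405), an alternative added after seeing the data. Only 1 was called with no filter (1019 of 22626) or with the amplified arrays alone (989). Leaving out 1 array at a time gave the members a median difference of 0.03 to 0.17 in amplified RNA, beside 0.02 for all tested. With each probe set replaced by the mean of its gene's tested sets, 1 member (Col4a4) was called in amplified RNA and 0 in the difference of effects (limma, 3 genes below 0.05 before adjustment), so the calls of Sparc, Hspg2 and Nid1 ended. Over the alternatives that keep probe sets apart, Col4a4 kept its call in 16 of 21 and Hspg2 (1418670_s_at) in 14 of 20. The difference of effects gave 1 call with no filter (beside 404 of 22626) or a filter at the 60th percentile (beside 462 of 9050). Nid1 (1448469_at) kept that call in 15 of 20. Over all preparations 1 member was called without the newly transcribed arrays, beside 321 of all 13575 tested. Amplified against total RNA gave 35 calls without the newly transcribed arrays or with only the arrays compared, and 13 to 35 leaving out arrays. Newly transcribed against amplified RNA gave 3 with only the arrays compared and 5 to 22 leaving out arrays. With the replicate block the members called were 0, 3, 0, 2, 19 and 4 in the order total, amplified, all preparations, difference, amplified against total, newly transcribed against amplified. In the same order 277, 1429, 26, 620, 4686 and 2648 of all 13575 tested were called. In newly transcribed RNA 2 members were past 4-fold, and the share of all tested past 4-fold was not counted.

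Sign changes past the threshold were seen for 4 values. Col1a1 (1455494_at) in amplified against total RNA was -1.21 as a mean over its probe sets. In newly transcribed against amplified RNA, leaving out arrays gave Col5a2 from -0.98 to 0.69, Col6a1 from -1.40 to 0.45 and Col6a2 from -1.08 to 1.28, the low ends without the contralateral and the high ends without the normal newly transcribed array. The causes were not tested. With 2 arrays or 1 a group, and dim probe sets near the offset, the median standard error of a member's difference in total RNA was 0.18.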
